A study of Mus musculus with 4 samples.

Results

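The nuclear end of the Notch pathway was examined through 9 genes. Hes5, Hes1 and Hey1 are repressor genes and Hes6 is their relative. Nrarp and Dtx1 are feedback and modifier genes, and Rbpj, Maml1 and Maml2 are genes of the transcription complex. The 9 genes were chosen by name from a table of 13881 genes, and all 9 were measured. All 9 passed the filter of a mean FPKM (fragments scaled by exon length and library size) of at least 1. RNA came from neural progenitor cells of C57bl/6 mouse forebrain, taken at embryonic day 14 and expanded in medium with the mitogens FGF-2 and EGF (20 ng/ml for both) and 2% B27 lacking vitamin A. The shRybp group (2 libraries) was infected with a lentivirus that carries a short hairpin RNA against Rybp, a subunit of Polycomb repressive complex 1, and the control group (2 libraries) is labelled ctrl under the same heading. The sources used here give neither the control's vector, nor the number of hairpins, nor the origin of the replicates, so the p-values rest on a spread between libraries that may be technical.

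When a Notch receptor meets a ligand on a neighbouring cell, its intracellular domain is cut free and enters the nucleus. There it joins the DNA-binding protein Rbpj and a Mastermind protein (Maml) and switches on Hes and Hey genes, whose products repress proneural genes and so keep progenitors from becoming neurons. Nrarp and Dtx1 act on the intracellular domain itself, Nrarp as a feedback inhibitor that is a Notch target in its own right.

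Total counts ran from 14355308 to 17598873 per library. Rybp had 3.01 and 2.66 FPKM in the shRybp libraries, against 4.43 and 3.95 FPKM in the control libraries, a log2 fold change of -0.60 (SE 0.12, edgeR quasi-likelihood adjusted p = 0.0017), so 67.6% of the control FPKM remained. All 12 progenitor markers listed were measured, with Nes, Sox2, Vim and Fabp7 at 98.3 FPKM or more in all 4 libraries, while Pax6 and Hmga2 were at 3.59 FPKM or less and Prom1, at 0.79 FPKM or less, was not tested. The endothelial genes Pecam1 and Cdh5, the fibroblast gene Col1a1, the choroid plexus gene Ttr and the globin genes were not analysed here. The 3 microglial genes measured summed to 2.63 and 2.96 FPKM in shRybp and to 1.21 and 2.40 FPKM in control.

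Promoter windows of 300 bases, from 250 before to 50 after an annotated start, were taken from RefSeq (build GRCm38.p6), which held 7 of the 9 genes in 10 windows. Windows of Hes5, Nrarp, Hes1 and Hey1 were to be shown, but none was held for Hes1 and Hey1. Hes5 and Nrarp, the 2 genes with the lowest fold changes among the 9, are therefore printed. Hes5 holds the letters that Rbpj is known to bind, and Nrarp does not within this window. Capitals mark GTGGGAA, the Rbpj motif, on either strand (it reads TTCCCAC on the opposite strand) in Hes5, and the E box CACGTG, which reads the same on both strands, in Nrarp.
Hes5 (chr4:154960673-154960972, plus strand): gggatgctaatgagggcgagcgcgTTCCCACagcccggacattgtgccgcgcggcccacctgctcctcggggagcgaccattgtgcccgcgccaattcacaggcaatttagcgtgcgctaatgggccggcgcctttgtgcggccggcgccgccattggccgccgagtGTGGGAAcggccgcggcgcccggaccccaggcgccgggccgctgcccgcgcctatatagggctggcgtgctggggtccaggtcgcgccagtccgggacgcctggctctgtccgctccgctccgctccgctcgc
Nrarp (chr2:25180508-25180807, plus strand): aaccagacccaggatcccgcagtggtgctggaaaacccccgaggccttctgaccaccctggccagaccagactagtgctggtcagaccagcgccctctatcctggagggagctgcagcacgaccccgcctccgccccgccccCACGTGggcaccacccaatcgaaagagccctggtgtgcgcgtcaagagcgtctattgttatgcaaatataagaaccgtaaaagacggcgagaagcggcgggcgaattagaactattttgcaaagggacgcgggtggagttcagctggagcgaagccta
The Hes5 window held GTGGGAA 2 times, once on the opposite strand starting 226 bases before the start and once on the gene's own strand starting 83 bases before it. Of 32851 RefSeq windows of this length, 6.38% held the motif at least 1 time and 0.256% at least 2 times. The other 9 windows of these genes held no GTGGGAA. Hes1 and Hey1, which had no window, were not searched. Its 6-letter core TGGGAA, which lies within it, was also found in 2 windows of Rbpj and 1 of Maml2, and in 25.6% of all windows. The E box stood 108 bases before the Nrarp start and was present in 7.15% of all windows. The N box CACNAG, a letter pattern bound by Hes proteins, was found in 42.5% of all windows and in at least 1 window of Hes6, Nrarp, Dtx1 and Maml2. A match of letters is not a bound site, and binding was not measured here.

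Hes5, the Notch-induced repressor that together with Hes1 keeps mouse progenitors undifferentiated, had the largest fold change of the 9 genes. It lies on mm10 chromosome 4 (154960923 to 154962371, plus strand). Hes5 had 9.03 and 11.4 FPKM in shRybp, from 177 and 255 counts, against 34.0 and 35.1 FPKM in control, from 816 and 763 counts. Both shRybp libraries were below both control libraries by a wide margin, and the shRybp pair differed more from each other than the control pair did. Hes5 fell by 1.79 on the log2 scale (95% interval -2.02 to -1.55, edgeR adjusted p = 2.62e-07), which is 3.45-fold lower, and it ranked 14 of 12062 tested genes counted from the lowest fold change. An antisense gene model, Gm20421, overlaps the exons of Hes5, and without strand information their reads cannot be told apart. In these bulk cultures fewer cells that express a gene and less RNA per cell cannot be told apart either, here or for any gene below.

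Hes1, the other main repressor of progenitors (chromosome 16, 30064384 to 30067796, plus strand), had 11.0 and 11.5 FPKM in shRybp, against 10.2 and 9.62 FPKM in control. The shRybp libraries were slightly above the control libraries with no overlap. The log2 fold change of 0.14 had a 95% interval of -0.06 to 0.35 and did not pass (edgeR adjusted p = 0.27). Without control replicate 2 it was 0.09.

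Hes6 (chromosome 1, 91411483 to 91414038, minus strand) encodes a relative that opposes Hes1 in mouse and favours neuronal differentiation. It had 28.7 and 30.6 FPKM in shRybp, against 30.6 and 35.3 FPKM in control. The higher shRybp library and the lower control library were practically at the same level, so the groups overlapped. Its log2 fold change of -0.18 (95% interval -0.37 to 0.00) did not pass (edgeR adjusted p = 0.12), but it passed without control replicate 1 (-0.28, edgeR adjusted p = 0.043).

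Hey1, a repressor of the related Hey family (chromosome 3, 8663359 to 8667256, minus strand), had 7.84 and 8.24 FPKM in shRybp, against 14.5 and 13.9 FPKM in control. The groups were far apart and each pair was tight. Hey1 fell by 0.86 on the log2 scale (95% interval -1.05 to -0.67, edgeR adjusted p = 1.59e-05), 1.81-fold lower.

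**Figure D1:**
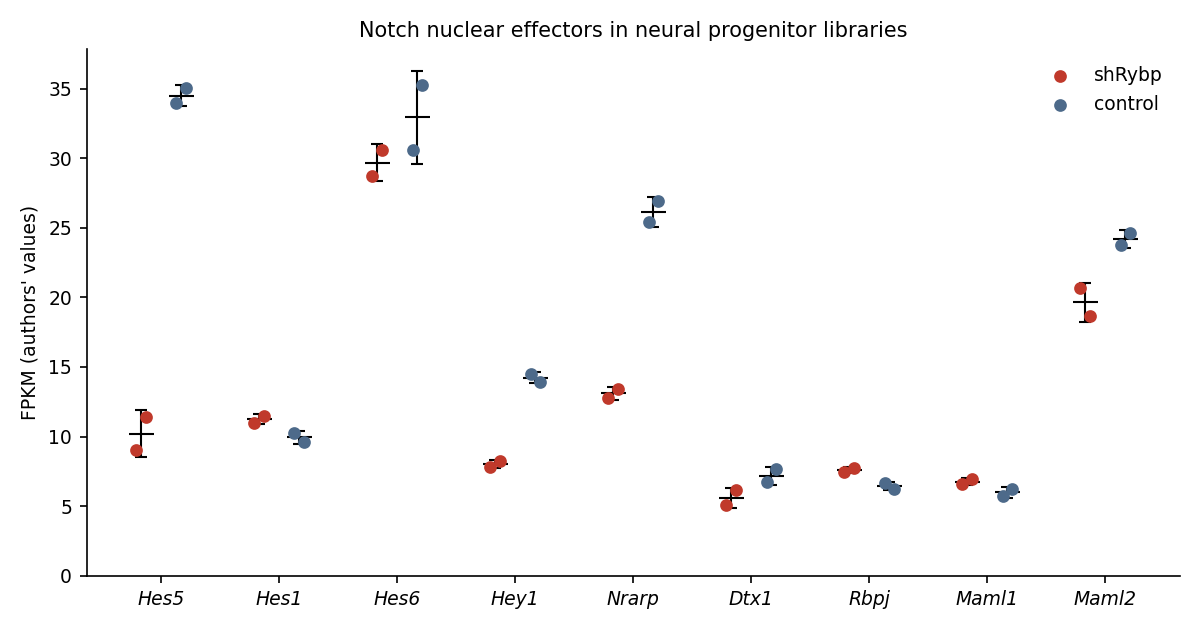
FPKM of the 9 genes in each library, shRybp left of control for each gene; points are libraries, the horizontal mark is the mean and the bar 1 SD (n = 2 each). Hes5, Nrarp and Hey1 show a wide gap between the groups, Hes6 overlaps, and Hes1, Rbpj and Maml1 lie slightly higher in shRybp.

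The makeup of the Hes and Hey genes, Hes6 among them, differed between the groups. Hes5, Hes1, Hes6 and Hey1 summed to 56.6 and 61.7 FPKM in shRybp, against 89.3 and 93.9 FPKM in control. Hes5 made up 16.0% and 18.4% of that sum in shRybp and 38.0% and 37.3% in control. Hes6 made up 50.8% and 49.6% of it in shRybp and 34.2% and 37.6% in control, while its own level did not pass the test. Of the difference between the mean sums, -32.5 FPKM, Hes5 accounted for 74.9%, Hey1 for 19.1% and Hes6 for 10.1%, and Hes1 went the other way.

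Within a library the FPKM of Hes5 was 0.82 and 0.99 times that of Hes1 in shRybp, against 3.31 and 3.64 times in control. The log2 ratio averaged -0.15 ± 0.19 in shRybp and 1.80 ± 0.10 in control (SD, n = 2 each), a difference of -1.95. An exact two-sided permutation test over the libraries gave p = 0.33, which is the smallest p that 2 libraries against 2 can give. The ratio depends on the lengths used: with the longest GENCODE M21 transcript of each gene in place of all its exons, a choice made after the values were seen, it was 0.63 and 0.76 in shRybp and 2.56 and 2.81 in control. Hey1 was 0.71 and 0.72 times Hes1 in shRybp, against 1.42 and 1.45 times in control.

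**Figure D2:**
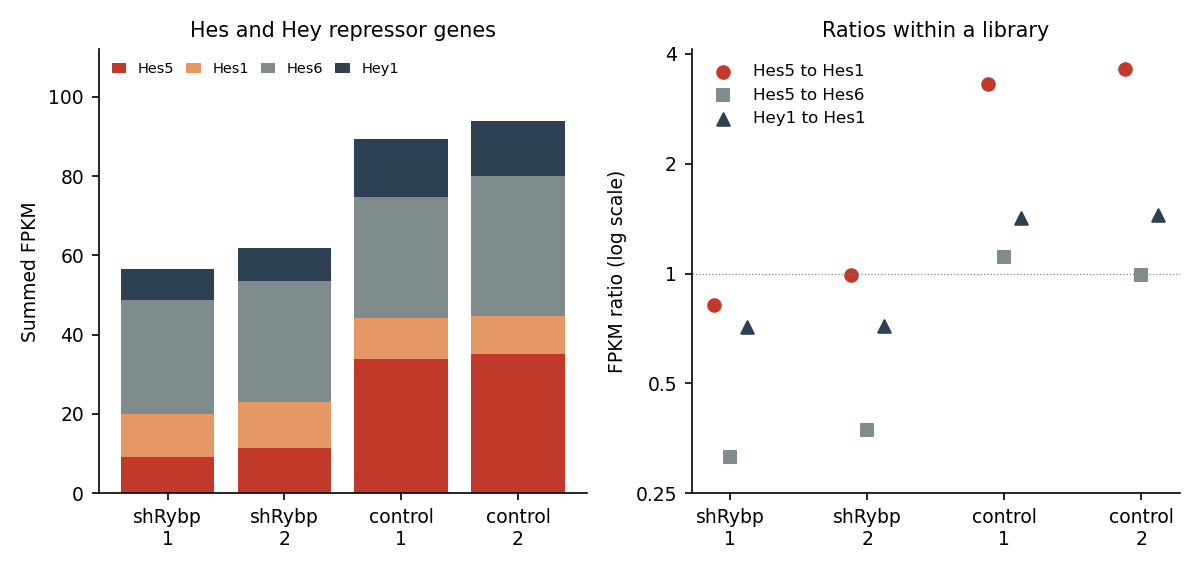
Left, FPKM of Hes5, Hes1, Hes6 and Hey1 stacked for each library; right, FPKM ratios of pairs of these genes within each library on a log axis, shRybp libraries left of control libraries. The stack is lower in shRybp, mainly through Hes5, and the ratio of Hes5 to Hes1 is 0.82 and 0.99 in shRybp and 3.31 and 3.64 in control.

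Nrarp, the ankyrin-repeat feedback inhibitor (chromosome 2, 25180758 to 25183339, plus strand), fell alongside Hes5. It had 12.8 and 13.4 FPKM in shRybp, from 475 and 570 counts, against 25.4 and 26.9 FPKM in control, from 1156 and 1110 counts. The pairs were tight and the shRybp level was 50.1% of the control level. Nrarp fell by 1.03 on the log2 scale (95% interval -1.21 to -0.85, edgeR adjusted p = 2.49e-06). An antisense gene model, Gm38287, overlaps its exons.

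Dtx1, a ubiquitin ligase of the Deltex family that binds the intracellular domain of Notch (chromosome 5, 120680202 to 120711927, minus strand), was lower by less. It had 5.09 and 6.12 FPKM in shRybp, against 6.74 and 7.64 FPKM in control. The groups did not overlap, but the gap between them was smaller than the spread within either. Dtx1 fell by 0.39 on the log2 scale (95% interval -0.62 to -0.16, edgeR adjusted p = 0.012), and it lost the call without shRybp replicate 1 (-0.27, edgeR adjusted p = 0.092) and without control replicate 2 (-0.31, edgeR adjusted p = 0.054).

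The DNA-binding partner and the coactivators moved little, and not in the same direction. Rbpj (chromosome 5, 53466152 to 53657362, plus strand), on which target recognition rests, had 7.44 and 7.73 FPKM in shRybp, against 6.64 and 6.25 FPKM in control. Rbpj rose by a log2 fold change of 0.20 (95% interval 0.05 to 0.35, edgeR adjusted p = 0.043). The call ended without shRybp replicate 1 (0.22, edgeR adjusted p = 0.088), without shRybp replicate 2 (0.17, edgeR adjusted p = 0.21) and without control replicate 2 (0.14, edgeR adjusted p = 0.25). A processed pseudogene, Rbpj-ps3, had 37 and 33 counts in shRybp and 37 and 30 in control, beside 1273 or more for Rbpj in every library.

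Maml2, a Mastermind coactivator (chromosome 9, 13297957 to 13709388, plus strand), had 20.6 and 18.7 FPKM in shRybp, against 23.7 and 24.6 FPKM in control. Both shRybp libraries were below both control libraries. Maml2 fell by 0.34 on the log2 scale (95% interval -0.48 to -0.19, edgeR adjusted p = 0.0023).

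Maml1, its paralogue (chromosome 11, 50255634 to 50292311, minus strand), had 6.60 and 6.93 FPKM in shRybp, against 5.73 and 6.26 FPKM in control. The shRybp libraries were higher without overlap, and the log2 fold change of 0.14, with a 95% interval of -0.05 to 0.33, did not pass (edgeR adjusted p = 0.25). Without control replicate 1 it was 0.08. An antisense gene model, Gm26542, overlaps exons of Maml1. Maml2 exceeded Maml1 in every library, by 3.13 and 2.69 times in shRybp and by 4.15 and 3.93 times in control. Their sum was 27.2 and 25.6 FPKM in shRybp, against 29.5 and 30.9 FPKM in control. Maml3, the third Mastermind gene, was at 0.30 FPKM or less in each library and was not tested.

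Of the 9 genes, 5 fell and 1 rose, where 16.7% of the 12062 genes tested fell and 16.3% rose (33.0% in either direction). The number of genes that rose was 1970, and 1296 without shRybp replicate 2. The median log2 fold change of the 9 was -0.34, against 0.00 over all genes tested. Falls of 1.5-fold or more were called for 3 of the 9, Hes5, Nrarp and Hey1, and for 4.87% of all genes. Falls of 2-fold or more were called for 2 of the 9 and for 1.21% of all genes. The groups had no overlapping FPKM values in 8 of the 9, against 67.5% of all genes. Since the 9 were chosen by name with earlier results known, these shares describe them and carry no test.

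**Figure D3:**
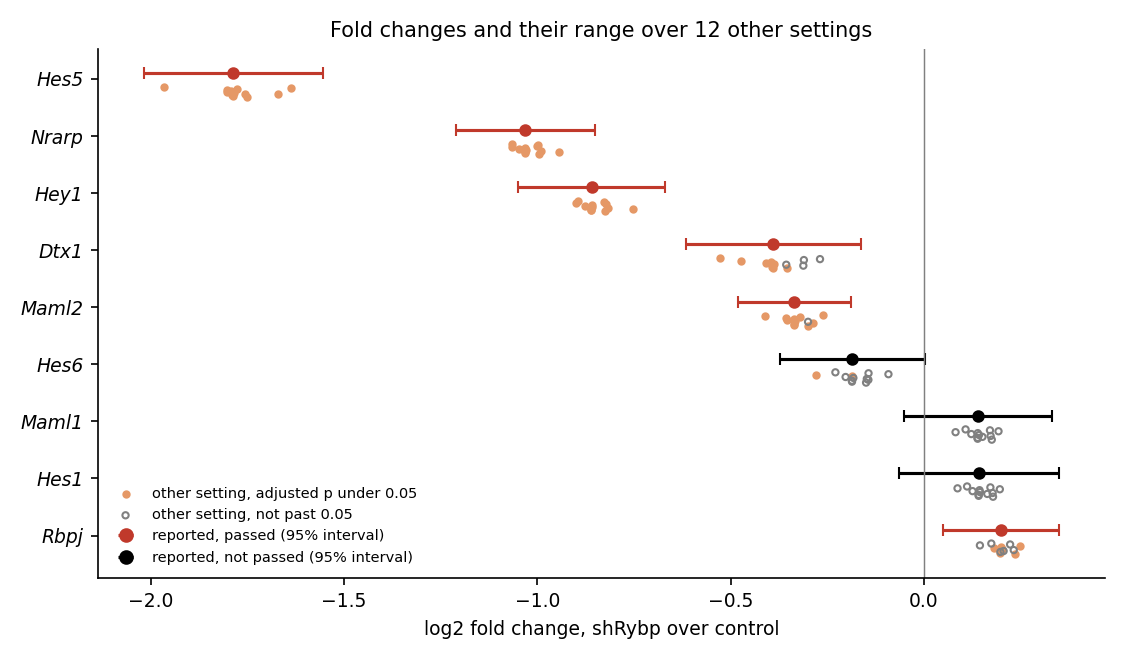
log2 fold change of shRybp over control for the 9 genes, lowest at the top; large points with bars are the reported values with 95% intervals (red passed the test, black did not) and small points are the 12 other settings (filled where the adjusted p was under 0.05). Hes5, Nrarp and Hey1 stay past the threshold in every setting, and Rbpj stays past it in 6 of 12.

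The order of levels differed between the groups. In shRybp the order by mean FPKM was Hes6 (29.7), Maml2 (19.7), Nrarp (13.1), Hes1 (11.2), Hes5 (10.2), Hey1 (8.04), Rbpj (7.59), Maml1 (6.76) and Dtx1 (5.61), and among neighbours in this order Hes1 and Hes5 overlapped. In control it was Hes5 (34.5), Hes6 (32.9), Nrarp (26.2), Maml2 (24.2), Hey1 (14.2), Hes1 (9.94), Dtx1 (7.19), Rbpj (6.45) and Maml1 (5.99), and Hes5 overlapped Hes6 and Rbpj overlapped Maml1. The places of several genes rest on the gene length behind FPKM, most of all that of Rbpj, whose 12 annotated transcripts cover 12750 bases of exon together while the longest has 5485 bases. With the longest transcript as length Rbpj averaged 17.6 FPKM in shRybp and 15.0 FPKM in control and ranked above Hes1 in both. With that length Hes1 (15.6 FPKM) stood above Nrarp (13.1 FPKM) in shRybp, and Dtx1 (7.32 FPKM) stood above Maml1 (6.76 FPKM) with overlap. In control Hes6 (37.9 FPKM) then stood above Hes5 (36.95 FPKM), also with overlap.

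Genes whose profile over the 4 libraries was nearest to a given gene were named by Euclidean distance between centred log2 counts scaled to library size. Nearest to Hes5 were Gfap, the intermediate filament gene of astrocytes (distance 0.057), the unnamed gene 9630028B13Rik (0.127) and Ttyh1, a membrane protein gene (0.136). Gfap had 5.09 and 6.55 FPKM in shRybp, against 19.8 and 20.8 FPKM in control. Nearest to Nrarp were the cell cycle inhibitor gene Cdkn1c (0.031), the glycogen phosphorylase gene Pygb (0.033) and the glycolytic gene Aldoc (0.042). Aldoc, like Gfap, is also among the astrocyte markers listed below. Nearest to Hes1 were Ring1 (0.0094), a catalytic subunit gene of Polycomb repressive complex 1, Bcat2 (0.013) and Gtpbp10 (0.014). With 4 libraries such distances mainly sort genes by the size of their fold change, and genes that change little lie close to many others.

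Markers of glia moved in the same libraries, where 16.3% of all genes tested rose and 16.7% fell. All 11 astrocyte markers tested of 12 listed fell, with a median log2 fold change of -1.01, and the 12 summed to 794 and 837 FPKM in shRybp, against 1527 and 1492 FPKM in control. Of 9 oligodendrocyte lineage markers tested, 4 fell and 0 rose, and the 10 listed summed to 763 and 796 FPKM in shRybp, against 838 and 869 FPKM in control. Olig1 and Olig2, which did not pass, made up most of these sums. The 4 that fell were Gpr17 (log2 fold change -2.51), Sox10 (-1.99), Pdgfra (-1.26) and Cnp (-0.80). Of 9 neuron markers tested, 2 rose and 4 fell, with sums of 351 and 334 FPKM in shRybp and 260 and 237 FPKM in control. Gap43 made up most of these sums, and without it they were 91.5 and 83.9 FPKM in shRybp and 101 and 102 FPKM in control. Of 11 progenitor markers tested, 3 rose and 4 fell, with sums of 2674 and 2586 FPKM in shRybp and 3398 and 3133 FPKM in control. Fabp7 was the most abundant of them, and without it the sums were 1206 and 1235 FPKM in shRybp and 1189 and 1151 FPKM in control. The part of these cell types in the values of Hes5, Nrarp and Hey1 was not tested.

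Of 8 relatives of the Hes and Hey genes listed, 2 were tested, the repressor genes Bhlhe40 and Bhlhe41, and both fell. Their median log2 fold change was -0.67, and 16.7% of all genes tested fell. Bhlhe41 had 1.23 and 1.33 FPKM in shRybp, against 2.25 and 2.52 FPKM in control (log2 fold change -0.93, SE 0.13, edgeR adjusted p = 0.00017). Bhlhe40 had 15.7 and 18.0 FPKM in shRybp, against 20.3 and 23.8 FPKM in control (-0.42, SE 0.09, edgeR adjusted p = 0.0029). Hey2, Heyl, Helt, Hes2, Hes3 and Hes7 were not analysed here.

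Among 15 other nuclear Notch factors tested, 2 rose and 2 fell, with a median log2 fold change of 0.02, where 16.3% of all genes tested rose and 16.7% fell. Without shRybp replicate 2 or without control replicate 1 it was 1 each way, and without control replicate 2 it was 1 that fell. Kat2a, a histone acetyltransferase recruited by the Notch complex, rose (0.40, edgeR adjusted p = 0.0012), and Dtx4, a relative of Dtx1, fell (-0.29, edgeR adjusted p = 0.0036). Fbxw7, whose ubiquitin ligase complex marks the intracellular domain for destruction, rose (0.28, edgeR adjusted p = 0.015), a call lost without shRybp replicate 2 (edgeR adjusted p = 0.079) and without control replicate 1 (edgeR adjusted p = 0.089). Cdk8, a kinase that acts in the same turnover, fell (-0.24, edgeR adjusted p = 0.039) and lost the call whichever library was left out (edgeR adjusted p from 0.063 to 0.14). The coactivator genes Ep300 (log2 fold change 0.02) and Crebbp (0.05) did not pass.

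Of 21 corepressor genes that work with Rbpj or with Hes proteins, 3 rose and 3 fell, near the 16.3% and 16.7% of all genes tested. The median log2 fold change was -0.08, and without control replicate 2 only 1 rose. Tle1, one of the Groucho-type corepressors that Hes proteins recruit, had 4.61 and 4.74 FPKM in shRybp, against 6.17 and 6.45 FPKM in control, and fell by 0.47 on the log2 scale (SE 0.08, edgeR adjusted p = 0.00091). Kdm5a, a histone demethylase that associates with Rbpj, also fell (-0.37, edgeR adjusted p = 0.0037). Spen fell (-0.24), and Hdac1 (0.25), Ctbp2 (0.26) and the short Groucho relative Tle5 (0.21) rose, but each of these 4 lost the call without at least 1 library. Those libraries were shRybp replicate 1 and control replicate 2 for Spen (edgeR adjusted p = 0.071 and 0.10), shRybp replicate 1 and control replicate 1 for Ctbp2 (0.17 and 0.062), shRybp replicate 2 and control replicate 2 for Tle5 (0.16 and 0.12), and control replicate 2 for Hdac1 (0.11).

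Of 28 genes tested for receptors, ligands and their processing, 5 rose and 10 fell, with a median log2 fold change of -0.09, beside 16.3% and 16.7% of all genes tested. The number that fell was 6 without shRybp replicate 1 and without control replicate 2, and the number that rose was 3 without shRybp replicate 2 and without control replicate 1. The ligand genes Dll3 (-1.53) and Dll1 (-0.84) fell, as did Dner (-0.35), which encodes a Notch-binding membrane protein, and Aph1b (-0.50), which encodes a subunit of the protease that frees the intracellular domain. Jag1 (0.90), Neurl1a (1.59), a ligase of ligands, and the shedding protease gene Adam10 (0.27) rose. Among the receptor genes, Notch1 (-0.07, edgeR adjusted p = 0.49) did not pass and Notch2 (-0.26, edgeR adjusted p = 0.033) fell. Notch3 (-0.34), Mib2 (-0.41), Rfng (0.35) and Ncstn (0.21) passed too but lost the call without either of 2 libraries, namely shRybp replicate 1 and control replicate 2 for Notch3 (edgeR adjusted p = 0.21 and 0.13) and Mib2 (0.23 and 0.082), and shRybp replicate 2 and control replicate 1 for Rfng (0.12 and 0.23) and Ncstn (0.29 and 0.13).

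Proneural genes that Hes proteins repress, with their partners and inhibitors, were the last list, of which 13 genes were tested, 3 rose and 4 fell (median log2 fold change -0.11), beside 16.3% and 16.7% of all genes tested. Only 2 fell without shRybp replicate 2 and without control replicate 1. Neurog1, Neurog2, Neurod1 and Atoh1 were not analysed here. Insm1, a zinc finger gene of newborn neurons, had 1.66 and 1.73 FPKM in shRybp, against 0.66 and 0.99 FPKM in control (log2 fold change 1.01, SE 0.23, edgeR adjusted p = 0.0046). Gadd45g rose (0.62), and Id4, an inhibitor of proneural dimers, fell by 1.24 on the log2 scale, as did the antiproliferative gene Btg2 by 0.40. Id2 (-0.27), Tcf4 (-0.19) and Tcf3 (0.25) passed but each lost the call without shRybp replicate 2 (edgeR adjusted p = 0.052, 0.32 and 0.28) and without control replicate 1 (0.15, 0.18 and 0.20).

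**Figure D4:**
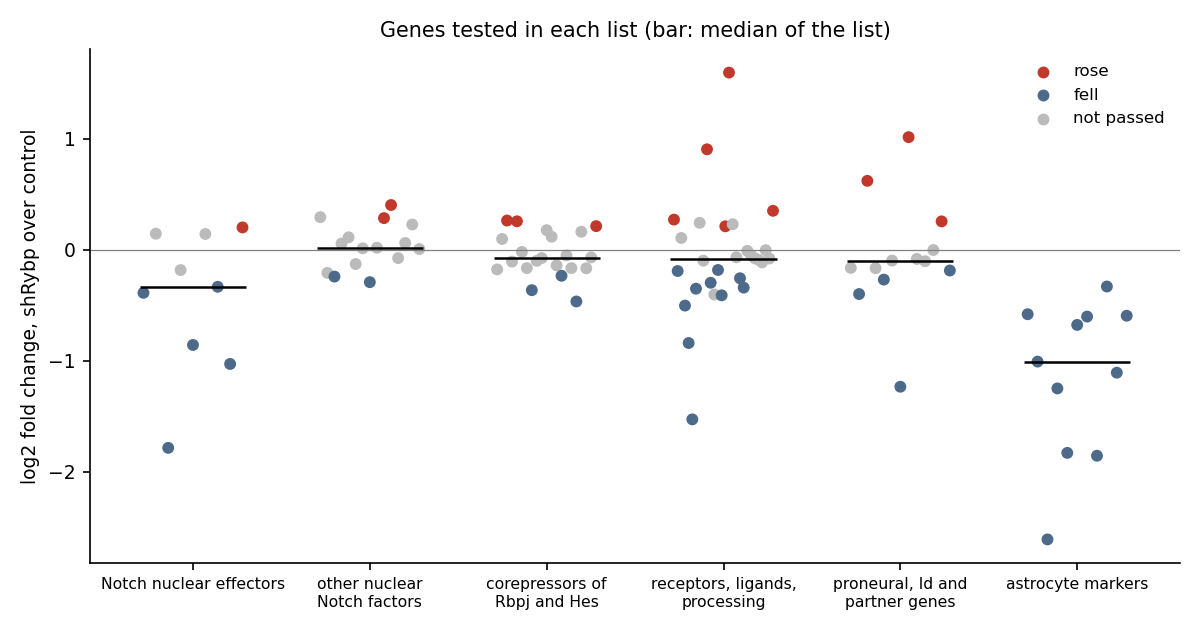
log2 fold change of shRybp over control for every gene tested in the 9-gene set, in 4 other Notch lists and among astrocyte markers; each point is a gene, coloured by whether it rose, fell or did not pass, and the bar is the median. The 4 other lists drawn have medians between -0.11 and 0.02, the 9 genes -0.34 and the astrocyte markers -1.01. Relatives of the Hes and Hey genes are not drawn (2 tested, both fell, median -0.67).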

How the data were processed

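Read counts per gene, which the authors deposited as raw whole numbers, stood beside FPKM values that the authors computed, per the file headers. Reads were placed on mm10, per the submitters' processing notes; the sources used here name no aligner, counting program or strand setting. For 98.5% of 13870 genes, and for all 9 described here, the length behind FPKM was within 1% of the summed exons of all GENCODE M21 transcripts, after a common factor. Genes in the table had at least 40 counts over the 4 libraries. Counts were compared for the 12062 genes whose FPKM averaged at least 1, with edgeR 4.0.16 (TMM, quasi-likelihood, two-sided, Benjamini-Hochberg over all genes tested, threshold 0.05) in R 4.3.3. Standard errors are the absolute log2 fold change over the square root of F. A gene rose or fell only if it passed. The fit was also run on simulated counts whose spread was taken from the fit itself, so that run cannot test the spread between libraries. Alternatives were other scalings, DESeq2 1.42.0, limma 3.58.1 on log2(FPKM + 1) and log2(FPKM + 0.1), other filters, a replicate block and leaving out each library. The genes and lists were chosen with earlier results of these data known. The text names all 9 genes, Rybp, list genes past the threshold (at most 6 in each direction per list) and the 3 nearest profiles to Hes5, Nrarp and Hes1. Other list genes named were singled out after their values were seen. A result that needs a withheld item is not reported here.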

Additional observations from a re-analysis of the deposited data

How the results depend on the processing

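Over 12 alternatives Hes5 (log2 fold change from -1.97 to -1.64), Nrarp (-1.07 to -0.94) and Hey1 (-0.90 to -0.75) kept their direction and passed each time, and Hes1 and Maml1 passed in none. In limma on log2(FPKM + 0.1) 3 of the 9 genes passed, with Rbpj (0.23, adjusted p = 0.082), Dtx1 (-0.36, adjusted p = 0.095) and Maml2 (-0.30, adjusted p = 0.060) lost, and 1189 of all genes fell. In limma on log2(FPKM + 1) Rbpj (0.21, adjusted p = 0.074) and Dtx1 (-0.31, adjusted p = 0.073) were lost, as was Rbpj in DESeq2 (0.20, adjusted p = 0.12). The genes past the threshold in the other Notch lists numbered 34, against 18 and 15 in limma with a pseudocount of 1 and 0.1. The cause was not tested. With 1 library left out, 4 to 7 of the 9 genes passed, Rbpj lay between 0.14 and 0.25, Dtx1 between -0.53 and -0.27, Hes6 between -0.28 and -0.0918, and the number of all genes that rose between 1296 and 1640. In such fits the lone library of a group is assumed to vary like the others.

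The replicate numbers are not said to pair the libraries, and with 2 pairs the data cannot settle it (correlation across genes of the difference between numbers 1 and 2, 0.10 between shRybp and control). With the replicate block 5328 genes passed in place of 3983, Hes6 passed (-0.18, adjusted p = 0.039), and the call of no other of the 9 genes changed. Of the values for Rybp, for the list genes named and for the list counts by direction, 388 stayed on their side of the threshold or within 1.5 times, 64 lost the call and 34 counts moved further. With the longest transcript as gene length, Rbpj averaged 17.6 FPKM in shRybp and 15.0 FPKM in control. Counts of 177 or more lay behind every value of the 9 genes.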
